A study of Mus musculus with 6 samples.

Results

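Retinal ganglion cells are the output neurons of the retina, and the mRNA of their marker genes was examined in whole retina at postnatal day (P) 8. The markers were Pou4f1, Pou4f2, Rbpms, Sncg, Nefl, Nefm, Nefh, Thy1, Gap43 and Stmn2, and every probe annotated to one of these 10 symbols was taken. Of the 10 genes, 8 were represented by a total of 18 probes among the 45281 probes of the array, where 19057 genes have a probe with a single symbol. Pou4f2, a transcription factor of differentiating ganglion cells, and Nefh, the heavy neurofilament subunit, were not analysed here because the annotation used pairs no probe with them. A probe was called expressed when its detection p-value, which compares its brightness with that of negative control beads, was under 0.05 on at least 3 of the 6 arrays. By this rule 13 of the 18 probes, covering 7 genes, were expressed, and 12 of the 13 were detected on all 6 arrays.

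The retinas came from 3 mice labelled Lrp5-/- and 3 wild type (WT) mice, all taken at P8, and total RNA of each mouse was assayed on 1 Illumina mouse BeadChip array. Lrp5 is a co-receptor of Wnt signaling that is needed for growth of retinal vessels, and the study asked how its loss changes gene expression in the developing retina. Mice labelled Lrp5-/- were of the strain B6.129P2-Lrp5tm1Dgen/J, which carries a germline targeted allele in every cell type, and WT mice were C57BL/6J. The groups are separate stocks that the labels do not describe as littermates, so genotype and stock cannot be told apart. The labels name no other treatment. The samples are whole retina, so for every value below fewer cells of a type and less RNA per cell cannot be told apart.

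Ganglion cells lie in the innermost cell layer of the retina and send their axons through the optic nerve to the brain. Pou4f1 is a transcription factor of differentiated ganglion cells and Rbpms is an RNA-binding protein found in nearly all of them. Thy1 is a glycoprotein of the cell surface and Sncg (gamma-synuclein) a small protein of the axon and cell body. Nefl and Nefm are the light and medium subunits of the neurofilament, the intermediate filament of large axons. Gap43 and Stmn2 act on the actin and microtubule cytoskeleton of growing axons. Several of these genes are not restricted to ganglion cells, since amacrine and horizontal cells also express stathmins, Gap43 or neurofilaments, so their signal in whole retina is a sum over neurons.

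The arrays differed in brightness before normalization. The mean non-normalized signal was 199.97 on the array of WT replicate 1 and 304 to 431 on the other 5, and 18167 probes were detected on that array against 20286 to 21388 on the others. Markers of rod photoreceptors were present in all retinas, with a summed normalized signal of 99373 to 119921 over 13 genes. Summed signals of the 13 expressed endothelial markers were 2116 to 2428 in retinas labelled Lrp5-/- and 3470 to 4143 in WT retinas, without overlap. Not all went the same way, with 12 of the 13 log2 fold changes below 0 and 1 above 0 (Emcn, 0.25). At an adjusted p under 0.05 from limma 1 of the 13 was called, the tight junction gene Cldn5 (lower than WT), against 0.116% of all expressed probes. The single expressed Lrp5 probe (ILMN_2942097) read 99.2, 91.3 and 95.7 in retinas labelled Lrp5-/- and 46.8, 59.5 and 56.1 in WT retinas. It was thus higher in the group labelled Lrp5-/-, a direction opposite to a loss of the mRNA. It was detected on 3 arrays labelled Lrp5-/- and on 1 WT array, so it met the rule for expressed through the group where it is higher. Its WT mean was 1.14 times the background, and the other Lrp5 probes were undetected on every array. No test of it is given. Where ILMN_2942097 sits with respect to the targeted sequence was not given, so the genotype was not tested from its values. Both groups keep the names of their labels throughout.

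No expressed marker probe passed the adjusted test of the difference between the 2 groups of retinas, for the transcription factor Pou4f1, for Rbpms, Thy1 and Sncg, or for the axonal genes Nefm, Gap43 and Stmn2. At an adjusted p under 0.05 from limma, 0 of 13 were called, with a smallest adjusted p of 0.987, against 0.116% of all 20721 expressed probes (24 probes). At an unadjusted p under 0.05, 0 of 13 passed, against 4.85% of all expressed probes, and 0 of 13 passed with a change of at least 1.3-fold in addition, against 0.830%. SAM, the method named in the study's methods, also called 0 of the 13, against 0.652%. The methods' t-test called 0 after Benjamini-Hochberg adjustment, as for all expressed probes, and 1 of 13 (the brightest Rbpms probe) before it, against 5.44%. The values of the 3 retinas of one group lay entirely beyond those of the other for 3 of the 13 probes, against 10.7% of all expressed probes. The fold changes, labelled Lrp5-/- over WT, ran from 0.885 to 1.11. The 95% interval of the fold lay within 1.3-fold in either direction for 11 of the 13 probes and within 1.5-fold for all 13. The median standard error was 0.10 on the log2 scale, for the 13 probes as for all expressed probes. Intervals of this width are thus not particular to the markers. These intervals bound the size of a change in signal that 3 mice per group leave possible, and a p that misses the threshold does not show that the groups are alike.

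**Figure D1:**
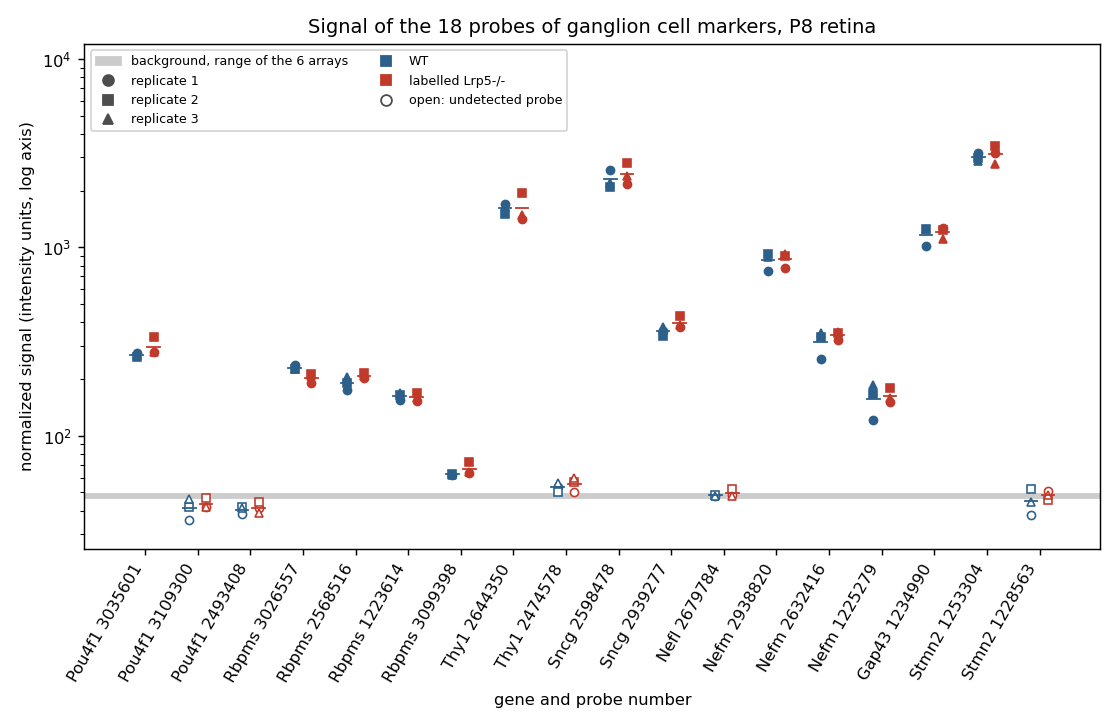
Normalized signal (log axis, intensity units) of all 18 marker probes in the 3 WT retinas (blue) and the 3 retinas labelled Lrp5-/- (red), with the group mean as a short line and the array background as a grey band from 46.9 to 49.2. The 5 probes with open symbols were undetected on every array and lie between 35.5 and 59.3, some below and some above the band, and for the other 13 the groups lie close together.

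Pou4f1, the transcription factor, was measured by 1 expressed probe (ILMN_3035601). It read 277, 334 and 279.8 in retinas labelled Lrp5-/- and 275, 260.2 and 267 in WT retinas. The 3 retinas labelled Lrp5-/- were all above the WT retinas, but 2 of them exceeded the highest WT value by less than the WT retinas differed among themselves, and replicate 2 stood apart from both groups. The fold change was 1.11 (95% interval 0.951 to 1.29, limma adjusted p = 0.987). Without replicate 2 of the group labelled Lrp5-/- the log2 fold change went from 0.14 to 0.06. The other 2 probes annotated to Pou4f1 (ILMN_3109300 and ILMN_2493408) were undetected on every array, with signals between 35.5 and 46.5 where the background was 46.9 to 49.2, so the values of Pou4f1 rest on 1 of 3 probes.

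Rbpms, the RNA-binding protein, was measured by 4 expressed probes, and these differed in sign. The brightest (ILMN_3026557, designed on NM_001042675) read 190.1, 213 and 208 in retinas labelled Lrp5-/- and 236, 227 and 226 in WT retinas. All WT retinas were higher, with a fold of 0.885 (95% interval 0.774 to 1.01), an unadjusted p of 0.0723 and an adjusted p of 0.987 from limma. This was the smallest unadjusted p of the 13 marker probes, and the only Rbpms probe lower in every retina labelled Lrp5-/-. A probe on a cDNA clone (ILMN_2568516, AK041118) read 202, 214 and 208 in retinas labelled Lrp5-/- and 175, 191 and 205 in WT retinas. Here only WT replicate 3 reached into the other group, and the fold was 1.09 (95% interval 0.951 to 1.26).

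The remaining Rbpms probes lay on either side of no change. ILMN_1223614, on NM_019733, read 153, 168 and 158.5 in retinas labelled Lrp5-/- and 154.5, 164 and 168 in WT retinas, which overlapped almost fully, for a fold of 0.986 (95% interval 0.862 to 1.13). ILMN_3099398, which shares its target transcript with the brightest probe, was close to background at 63.3, 72.8 and 63.9 in retinas labelled Lrp5-/- and 62.0, 63.0 and 62.0 in WT retinas. The lowest retina labelled Lrp5-/- was above the highest WT retina by a fraction of a signal unit, and the fold was 1.07 (95% interval 0.929 to 1.23). On WT replicate 1 this probe was undetected (detection p-value 0.11). The probes on NM_001042675 thus went in opposite directions, each without overlap of the groups. Whether the 4 probes differ from each other in their change was not tested.

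**Figure D2:**
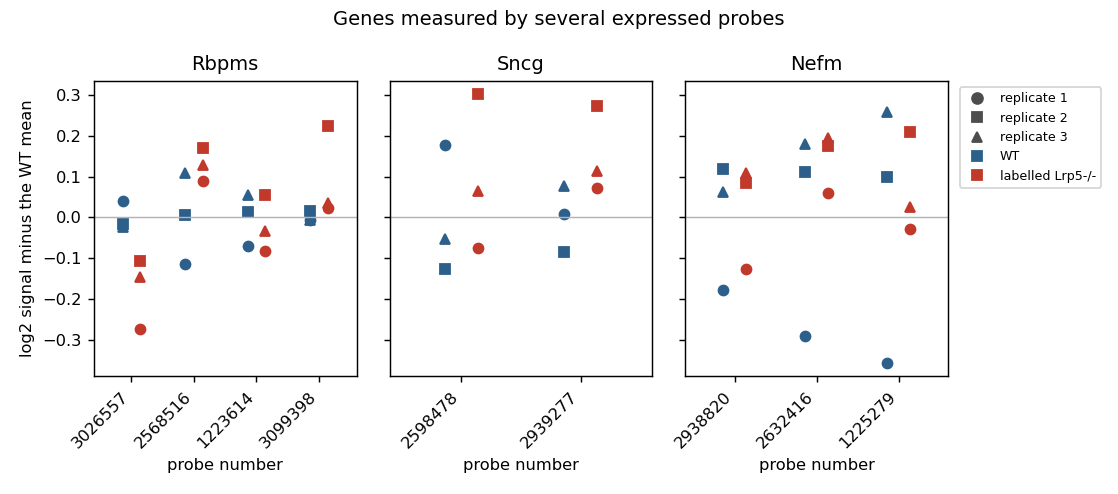
Log2 normalized signal minus the WT mean for each expressed probe of Rbpms, Sncg and Nefm, with 1 point per retina (blue WT, red labelled Lrp5-/-, symbols by replicate). For Rbpms the red points lie below the blue ones at 1 probe and above them at another, and for Nefm WT replicate 1 is the lowest point at all 3 probes.

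Sncg, or gamma-synuclein, was measured by 2 expressed probes. The brighter, ILMN_2598478, read 2167, 2814 and 2389 in retinas labelled Lrp5-/- and 2584, 2091.5 and 2202.5 in WT retinas, a WT mean 48.3 times the background. Replicate 2 labelled Lrp5-/- and WT replicate 1 were the highest, so the order of the retinas crossed the groups, and the fold was 1.07 (95% interval 0.892 to 1.28). The second probe (ILMN_2939277) read 376, 433 and 387 in retinas labelled Lrp5-/- and 360.2, 338 and 377 in WT retinas. Only replicate 1 of the group labelled Lrp5-/- fell among the WT values there, and the fold was 1.11 (95% interval 0.962 to 1.28, limma adjusted p = 0.987). At both probes the highest retina was replicate 2 labelled Lrp5-/-, and without it the log2 fold changes were -0.01 and 0.09.

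Thy1, the surface glycoprotein, had nearly the same mean in both groups. Its expressed probe (ILMN_2644350) read 1414, 1949.8 and 1493 in retinas labelled Lrp5-/- and 1702.5, 1500.2 and 1631 in WT retinas. The group labelled Lrp5-/- held the highest retina and both of the lowest, and its spread was wider (SD 289 against 103, n = 3 each). The fold was 0.996 (95% interval 0.825 to 1.20, limma adjusted p = 0.999), and the log2 fold change of -0.01 moved to -0.15 without replicate 2 labelled Lrp5-/- and to 0.08 without replicate 1. The second Thy1 probe (ILMN_2474578), which has no target transcript in the annotation, was undetected on every array at 50.2 to 59.3.

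Of the neurofilament subunits only Nefm could be followed. Its brightest probe (ILMN_2938820) read 779, 901 and 917 in retinas labelled Lrp5-/- and 751, 923 and 888 in WT retinas, with replicate 1 lowest in each group. The groups overlapped almost fully and the fold was 1.01 (95% interval 0.860 to 1.20). The second probe (ILMN_2632416) read 324, 351 and 356 in retinas labelled Lrp5-/- and 254, 336 and 353 in WT retinas. WT replicate 1 lay below all other retinas there, and the fold was 1.10 (95% interval 0.915 to 1.33).

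The third Nefm probe (ILMN_1225279) read 152, 179 and 158 in retinas labelled Lrp5-/- and 121, 166 and 185 in WT retinas, so that WT held both the lowest and the highest value. Its fold was 1.05 (95% interval 0.841 to 1.31). These 2 dimmer Nefm probes were the only ones of the 13 whose intervals reached past 1.3-fold. WT replicate 1 was the lowest of all 6 retinas at all 3 Nefm probes, and without it the log2 fold changes were -0.07, -0.002 and -0.11, from 0.02, 0.14 and 0.07 with all arrays.

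Nefl, which lies next to Nefm in the genome, has 1 probe under its symbol (ILMN_2679784), and that probe was undetected on every array. It read 48.6, 52.2 and 47.6 in retinas labelled Lrp5-/- and 48.0, 48.7 and 47.8 in WT retinas, where the array background was 46.9 to 49.2. All of its arrays thus lay close to the background in both groups, no fold is given for it, and nothing can be said of the light subunit from this probe.

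Gap43, the growth-cone protein, read 1265, 1234 and 1112 in retinas labelled Lrp5-/- and 1012, 1245 and 1250.1 in WT retinas (ILMN_1234990). WT replicate 1 was again the lowest retina and the other 5 overlapped, for a fold of 1.03 (95% interval 0.876 to 1.22). Without WT replicate 1 the log2 fold change turned from 0.05 to -0.05.

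Stmn2, the microtubule regulator also known as SCG10, was measured by 1 expressed probe (ILMN_1253304), with a WT mean 63.1 times the background. It read 3159.7, 3451 and 2776 in retinas labelled Lrp5-/- and 3159.7, 2978 and 2866 in WT retinas. The group labelled Lrp5-/- held both the highest and the lowest retina, and the fold was 1.04 (95% interval 0.890 to 1.21). The second Stmn2 probe (ILMN_1228563), designed on the cDNA clone AK043202, was undetected on every array at 38.1 to 51.9. Signals of different probes are not compared with each other as levels, since probes differ in brightness for the same amount of RNA.

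**Figure D3:**
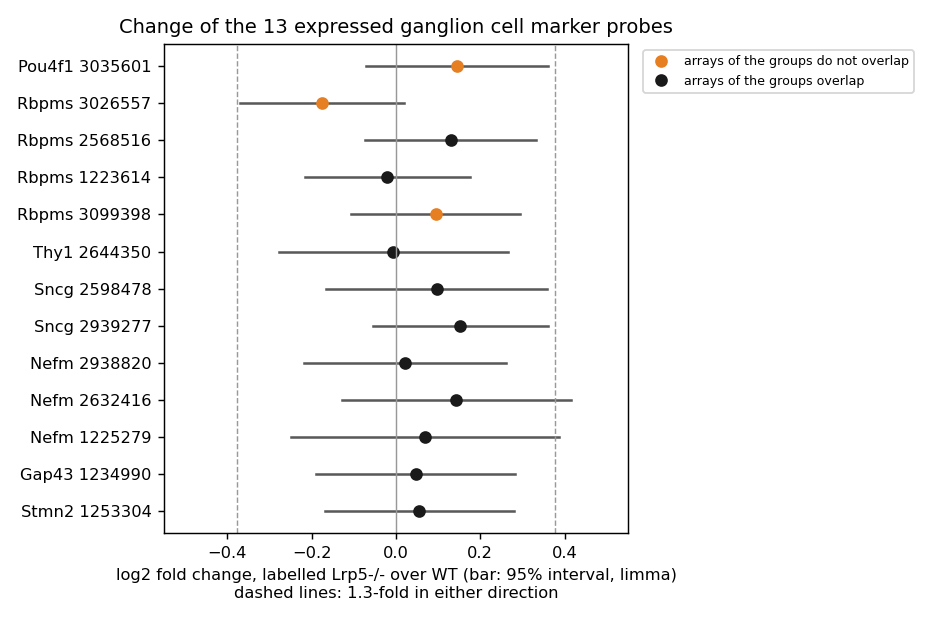
Log2 fold change (labelled Lrp5-/- over WT) with its 95% interval from limma for the 13 expressed marker probes, with dashed lines at 1.3-fold. All 13 intervals hold 0, and the 3 orange points are the probes whose groups do not overlap, 2 of them higher and 1 lower in the retinas labelled Lrp5-/-.

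Set side by side, the marker genes spread around no change. With the brightest expressed probe of each gene, 5 genes had a log2 fold change above 0 and 2 (Rbpms and Thy1) below 0, with Thy1 turning to above 0 under each other scaling of the signals. For Thy1 the mean of the linear signals was the higher one in the group labelled Lrp5-/- (1619 against 1611), since the log2 fold change compares means of log2 signals. The median log2 fold change of the 7 genes was 0.05, from -0.18 for Rbpms to 0.14 for Pou4f1, beside a median of -0.01 over all 11097 expressed genes. The median size of the change, regardless of sign, was 0.06 on the log2 scale for the 7 genes and 0.07 for all expressed genes. Over all 13 probes the log2 fold change was above 0 for 10 and below 0 for 3, and the median size was 0.09 against 0.07 over all expressed probes. The standard errors of the marker probes were 0.09 to 0.14 on the log2 scale with a median of 0.10, equal to the median of 0.10 over all expressed probes.

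Single retinas stood apart at several markers at once. Replicate 2 labelled Lrp5-/- was the highest of the 6 retinas for 4 of the 7 genes, Pou4f1, Sncg, Thy1 and Stmn2, and its median over the 7 genes was 0.17 above each probe's mean over the arrays on the log2 scale. Replicate 1 labelled Lrp5-/- had the lowest median, -0.12, and was the lowest retina for Rbpms and Thy1. The medians of the other 4 retinas lay between -0.06 and 0.05, and the median over all expressed probes was within 0.01 of 0 on every array. Without replicate 2 labelled Lrp5-/- the median log2 fold change of the 7 genes was -0.01, and without the other single arrays it was 0.03 to 0.10.

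**Figure D4:**
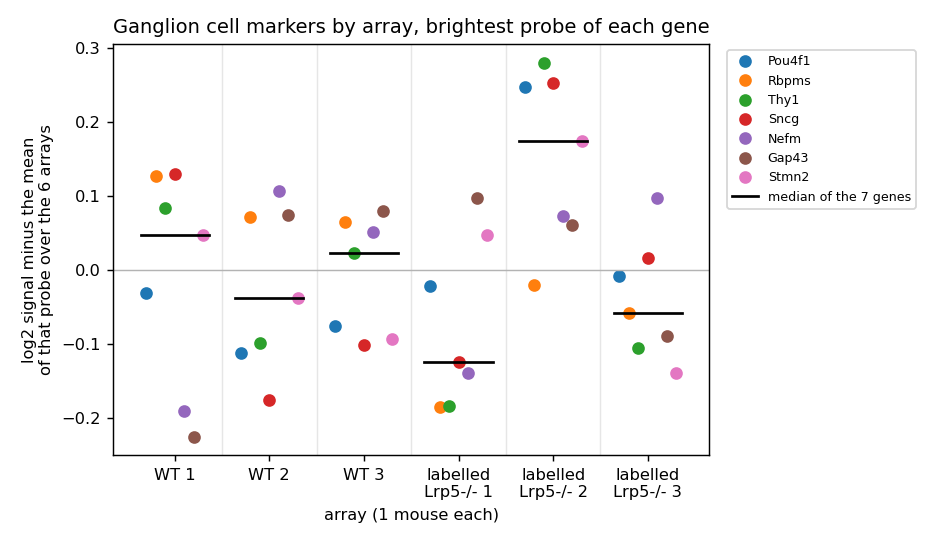
Log2 signal minus the mean of that probe over the 6 arrays, for the brightest expressed probe of each of 7 marker genes (colours) on each array, with the median of the 7 genes as a black line. Replicate 2 labelled Lrp5-/- has the highest median (0.17) and replicate 1 labelled Lrp5-/- the lowest (-0.12), while Nefm and Gap43 are lowest on WT replicate 1.

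The markers did not share a direction on WT replicate 1, the array of low brightness. Nefm and Gap43 were lowest there, at -0.19 and -0.22 from their means on the log2 scale, while Rbpms and Sncg were above theirs, by 0.13 each. Among the other ganglion cell genes examined, some were lowest and some highest on that array. The neuritin gene Nrn1 was lowest there, at 711 against 837 to 993.7 on the others. The brightest probes of Sox4, Sox11, Isl1 and Ebf3 were highest there, at 1846, 1266, 7801.5 and 2650. The part of the array in these values was not tested.

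Signals of genes listed as markers of lens and pigment epithelium varied between single arrays. The summed signal of 13 lens crystallin genes was 976, 3467 and 2551.5 in retinas labelled Lrp5-/- and 2864, 1611 and 1044.6 in WT retinas, and that of 7 pigment epithelium genes was 1745 to 3607 and 1688 to 4723. The crystallin sum was thus highest in replicate 2 labelled Lrp5-/-, where Pou4f1, Sncg, Thy1 and Stmn2 were highest too, and lowest in replicate 1 of the same group. Whether these sums reflect lens tissue or crystallin mRNA of the retina itself was not tested, nor was any part of lens tissue in the values of the markers. Amacrine cells are neurons that share the inner layers with ganglion cells. The summed signal of 14 of their markers was 21063 to 22390.4 in retinas labelled Lrp5-/- and 20637 to 22390.0 in WT retinas. Log2 fold changes of these 14 genes ran from -0.21 to 0.29. Of the 14, 0 passed the adjusted threshold, 1 an unadjusted p under 0.05 from limma, and 2 did not overlap. Over all expressed probes the shares were 0.116%, 4.85% and 10.7%.

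Other genes of ganglion cells gave the same count of calls. This list is not restricted to ganglion cells, since Isl1 is also among the bipolar cell markers listed here. Of 32 listed genes 23 were expressed, among them the transcription factors Isl1, Ebf3 and Sox11 and the vesicular glutamate transporter Slc17a6, and 0 passed an adjusted p of 0.05 from limma. At an unadjusted p under 0.05, 1 passed, and the median log2 fold change was 0.01, with 12 genes above 0 and 11 below. Elavl3, a neuronal RNA-binding protein, had the smallest p, at 1288, 1443 and 1347 in retinas labelled Lrp5-/- and 1156, 1142.5 and 1216 in WT retinas. These values did not overlap, and the fold was 1.16 (95% interval 1.01 to 1.33, adjusted p = 0.987), but this probe (ILMN_1214737) has no target transcript in the annotation. The other expressed Elavl3 probe (ILMN_2718837, on NM_010487) had overlapping groups and a log2 fold change of -0.01. The transcription factors Tbr1 and Sox4 followed, with log2 fold changes of 0.17 and 0.21 at their brightest probes and overlapping groups (adjusted p = 0.987 for both, limma). The Tbr1 probe was close to background, with a WT mean 1.29 times it, and was detected on 5 of the 6 arrays. Over all 39 expressed probes of the list, 1 passed the unadjusted threshold and 1 did not overlap, against 4.85% and 10.7% of all expressed probes.

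Genes of the axonal cytoskeleton and of axon growth had no called member either. Of 23 cytoskeleton genes 16 were expressed, 0 passed the adjusted threshold and 0 the unadjusted one at their brightest probe, and the median log2 fold change was -0.03. Ina, the alpha-internexin that assembles with Nefm, had a log2 fold change of -0.04. The genes with the smallest p were Mapt, the microtubule-associated protein tau (0.22), and Dpysl2 and Dcx, proteins of growing neurites (-0.16 and -0.14), all with an adjusted p of 0.987 from limma. A second probe of Mapt (ILMN_1257750) read 362, 401 and 334 in retinas labelled Lrp5-/- and 234, 297 and 285 in WT retinas, without overlap, for a fold of 1.35 (95% interval 1.13 to 1.60, adjusted p = 0.526). Over all 42 expressed probes of the cytoskeleton list, 0 passed the adjusted threshold, 4 an unadjusted p under 0.05 and 5 did not overlap. The shares over all expressed probes were 0.116%, 4.85% and 10.7%. Beside that Mapt probe, the 4 past the unadjusted threshold were dimmer probes of Dpysl2 (ILMN_2451389, log2 fold change -0.27), Crmp1 (ILMN_2781663, 0.22) and the tubulin gene Tubb2b (ILMN_2588051, 0.23), with adjusted p-values of 0.979 to 0.987.

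Of 17 genes of axon growth and adhesion 15 were expressed, with 0 past the adjusted threshold, 2 higher at an unadjusted p under 0.05 and a median of -0.04. Those 2 were Basp1, a membrane protein of growth cones related in function to Gap43 (fold 1.24, 95% interval 1.04 to 1.49), and Marcks, an actin-binding substrate of protein kinase C (fold 1.16, 95% interval 1.01 to 1.33). The Basp1 probe was dim, with a WT mean 1.85 times the background, and its groups overlapped. Without WT replicate 1 its log2 fold change went from 0.31 to 0.19. Ncam1, the neural cell adhesion molecule, had the third smallest p, with a fold of 1.25 (95% interval 0.947 to 1.65) at its brightest probe. Its other 3 expressed probes differed in sign, with log2 fold changes of 0.17 (ILMN_3102825), -0.11 (ILMN_2722864) and -0.19 (ILMN_1254093). Adjusted p-values at the brightest probes of these 3 genes were 0.944, 0.987 and 0.987. Over all 31 expressed probes of the list, 2 passed the unadjusted threshold and 4 did not overlap, against 4.85% and 10.7% of all expressed probes.

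The relative of a marker that came nearest to the threshold was Stmn4, a neuronal stathmin like Stmn2. Its probe ILMN_2590845 read 627, 594 and 585.5 in retinas labelled Lrp5-/- and 429, 442 and 407 in WT retinas. All 3 retinas labelled Lrp5-/- were above all WT retinas by a margin wider than the spread within either group. The fold was 1.41 (95% interval 1.24 to 1.61, limma adjusted p = 0.0783), and the second Stmn4 probe (ILMN_2590848) gave 1.297 (95% interval 1.13 to 1.49, adjusted p = 0.344), again without overlap. Without WT replicate 1 the first of these probes passed (adjusted p = 0.0376) and the second did not (adjusted p = 0.0635). That omission raised the calls among all expressed probes from 24 to 85. With any other single array left out, the first probe had an adjusted p of 0.214 to 0.436 from limma.

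Other stathmins, a synuclein and the relative of Rbpms were also expressed. Stmn1 and Stmn3 had log2 fold changes of -0.04 and 0.06, Sncb (beta-synuclein) -0.05 and Rbpms2 -0.02, all with overlapping groups. In all 8 of 11 listed relatives were expressed, 0 passed the adjusted threshold, and 2 (Stmn4 and Basp1) passed an unadjusted p of 0.05. Vim, the intermediate filament of glia, had the third smallest p of these (log2 fold change 0.19, adjusted p = 0.987). Over all 9 expressed probes of the list, 3 passed the unadjusted threshold and 2 did not overlap, against 4.85% and 10.7% of all expressed probes. Whether Stmn4 and Stmn2 differ in their change was not tested.

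Genes that rise in injured or dying ganglion cells were followed as well. Of 17 such genes 12 were expressed. Among these was Hrk, detected on 3 arrays labelled Lrp5-/- and on 0 WT arrays, so it met the rule only through that group. Its WT mean was 1.26 times the background and its groups overlapped. Of the 12 genes 0 passed the adjusted threshold, and at an unadjusted p under 0.05 1 had a lower and 1 a higher mean. The former was Lgals3 (galectin-3, which microglia and macrophages also express), with 116, 102.9 and 97.5 in retinas labelled Lrp5-/- and 137, 133 and 148 in WT retinas. These values did not overlap, and the fold was 0.757 (95% interval 0.652 to 0.878, limma adjusted p = 0.346). Bbc3, a pro-apoptotic BCL2-family gene also known as Puma, was at 445, 406 and 412 against 385, 338 and 345, with a fold of 1.18 (95% interval 1.03 to 1.36, adjusted p = 0.944). A second, dimmer Bbc3 probe (ILMN_2690620) had overlapping groups and a log2 fold change of -0.08. Bcl2l11, or Bim, had a fold of 1.14 (95% interval 0.994 to 1.298, adjusted p = 0.987) at its brightest probe and 1.15 (95% interval 1.01 to 1.31, adjusted p = 0.987) at the other (ILMN_2590638), neither with overlap. Jun, Ddit3 and Sox11 had log2 fold changes of 0.16, -0.09 and 0.03 at their brightest probes, with overlapping groups, and a second Ddit3 probe (ILMN_2927373) had -0.14 without overlap. In this list 5 of 12 genes at their brightest probe, and 7 of all 18 expressed probes, did not overlap between the groups, where 10.7% of all expressed probes did not. An unadjusted p under 0.05 was reached by 3 of the 18, against 4.85% of all expressed probes.

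**Figure D5:**
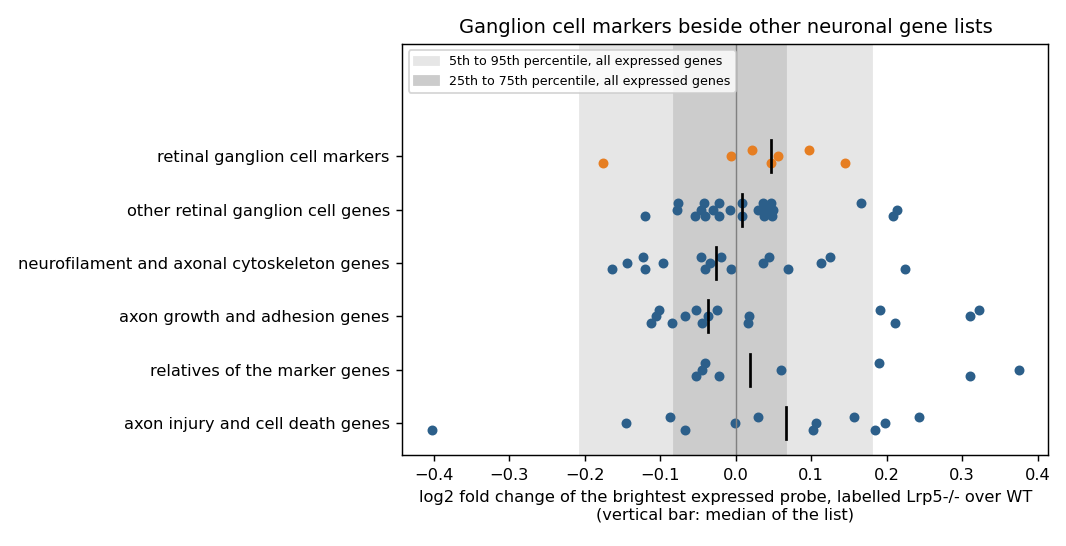
Log2 fold change (labelled Lrp5-/- over WT) of the brightest expressed probe of each gene in the ganglion cell markers (orange) and in 5 other gene lists (blue), not all of them restricted to neurons. The median of each list is a bar and the spread of all expressed genes is in grey. The 7 markers lie between -0.18 and 0.14, and the genes furthest out are Stmn4 (0.38) and Lgals3 (-0.40), neither past the adjusted threshold.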

How the data were processed

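Total retinal RNA was reverse transcribed and amplified by in vitro transcription, which added the biotin label. The product was hybridized to Mouse-WG6 BeadChips and stained with streptavidin-Cy3. The authors scanned the arrays and normalized them in Bead Studio by its rank invariant method. The deposited tables give the linear signal intensity of every probe, background included, before and after that step. They also hold the deposited detection p-value against negative control beads, of which 0 differ between the tables. The third deposited table equals the normalized one (0 values differ) and was left out.

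Probes were named from the platform annotation (34885 with 1 symbol, 18 with several, 10378 unnamed here). Signals under 16 were set to 16 (1 value) and log2 was taken. The 20721 expressed probes were fitted with limma 3.58.1 in R 4.3.3, without a block, with Benjamini-Hochberg adjustment over these probes, after a test on simulated data. Since the background was left in the signals, folds understate changes of dim probes. Background is the median signal of the undetected probes of an array. Precision is limited by the number of arrays, and 3 mice against 3 cannot give a two-sided exact permutation p below 0.1. The tables name no slide or scan, so no batch was tested.

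Every probe of every marker was given or counted, and of each other list up to 3 genes with the smallest p were named. Further genes of a list were named after their values were seen. The members, lists and tests were chosen with earlier results of these data known. Alternatives were other normalizations, filters and tests, array weights, a replicate block and each array left out. Those of Stmn4 were chosen after seeing the data. Probe sequences, a genome and RT-qPCR were not used here.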

Additional observations from a re-analysis of the deposited data

How the results depend on the processing

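Under all 20 alternatives 0 of the expressed marker probes were called, with a smallest adjusted p of 0.685 (array weights). The median log2 fold change of the 7 genes, 0.05 as reported, was 0.18 on non-normalized signals, where the arrays' brightness is left in, 0.14 after median scaling, and -0.01 to 0.10 with 1 array left out (lowest without replicate 2 labelled Lrp5-/-). Pou4f1 and the brightest Rbpms probe kept their sign under all 20, and small changes of the other genes did not. With 1 array left out Sncg was -0.0051 to 0.19 and Stmn2 -0.018 to 0.14, both lowest without replicate 2 labelled Lrp5-/-. Nefm was -0.015 with array weights and -0.069 to 0.096 with 1 array left out, below 0 without WT replicate 1 and without replicate 2 or 3 labelled Lrp5-/-. Gap43 was -0.039 with array weights and -0.054 to 0.10 with 1 array left out, lowest without WT replicate 1. Thy1, at -0.01, was 0.00087 after quantile normalization, 0.00060 with neqc, 0.092 after median scaling, 0.13 on non-normalized signals, 0.028 with array weights and -0.15 to 0.084 with 1 array left out, above 0 without replicate 1 or 3 labelled Lrp5-/- and without WT replicate 1 or 3. The cause was not tested.

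The count of all called probes, 24 as reported, was 10 after median scaling, 2 on non-normalized signals, 11 with 50 added to each signal, 135 with SAM, 98 with array weights and 0 with the methods' t-test after adjustment (1127 at an unadjusted p under 0.05). It was 10 to 85 with 1 array left out, the 85 without WT replicate 1, the dim array. With the replicate number as a block it was 13, and 0 marker probes were called. Same-numbered retinas did not deviate together (correlations of -0.21, -0.15 and -0.28). So few correlations cannot decide whether the numbers pair retinas, and the labels do not say. The brighter of the 2 Stmn4 probes passed with array weights (adjusted p = 0.0363), and the other with array weights (adjusted p = 0.0116), with SAM and without WT replicate 1 (adjusted p = 0.0376). Lgals3 passed with SAM. Signals close to background, as for the dimmest Rbpms probe, limit what could be detected.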
